A study of Solanum tuberosum with 6 samples.

Results

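Among the clones of a potato leaf cDNA array, the lipid-transfer proteins were those whose annotation, with the species name removed, contained the words lipid transfer (with a space or a hyphen) or the abbreviations nsLTP or LTP. Of 10499 clones on the array, 9 met this rule, under 6 different annotations. Plants of PS3, a cultivar of potato (Solanum tuberosum), were watered once with 75 mL of 150 mM NaCl or, as controls, given tap water in the same volume, and leaves were compared 1 day and 3 days later. All plants had been multiplied in vitro and grown in pots of soil and sand for 2 months. The first and second leaves were taken from a different set of plants on each day. Each of 6 two-colour arrays, 3 per day, carried the RNA of salt-watered leaves in one dye and that of control leaves of the same day and replicate in the other, with salt in Cy3 on replicates 1 and 3 and in Cy5 on replicate 2. The study asked how leaf expression under salt differs from the control at each time.

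Non-specific lipid-transfer proteins are small secreted plant proteins in which disulfide bonds hold helices around a hydrophobic cavity that can take up fatty acids and other lipids. Many are made in the epidermis of leaves and are thought to carry lipid building blocks of the cuticle, the waxy layer that limits water loss, and some act in defence against microbes. In tomato and other species, transcripts of several members are known to accumulate under salt, drought or abscisic acid. Glycolipid transfer proteins share the words of the name but not the fold: they are intracellular proteins that move glycolipids between membranes.

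Of the 9 clones, 8 were named for lipid-transfer proteins, most with the word nonspecific or putative, and 1, STMEV05, for a glycolipid transfer protein like that of rice. The clones STMGR44, STMGQ20 and STMGN69 shared the annotation of the tobacco nonspecific lipid-transfer protein 2 precursor. STMIM60 and STMJJ13 shared that of a putative potato lipid transfer protein. STMCS65 was named for the tomato non-specific protein, STMGZ28 for the pineapple one and STMHF02 for a protein of Senecio odorus, a succulent. The deposited gene ontology terms, which the rule did not use, gave lipid transport and lipid binding for 6 clones, the tobacco-, potato- and pineapple-named ones, and lipid transport and lipid transporter activity for STMCS65. For each of the 9, 0 other clones carried the same transcript assembly identifier, so no shared identifier joined the clones of one annotation. Near-identical transcripts can still bind the same spot on a cDNA array, and this was not tested.

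All values are log2 ratios of salt over control. This direction was assumed and is not stated by the sources. The labels name the control as the reference, while the array titles read control versus salt-treated, an order that could mean the opposite ratio. Within each day, arrays with salt in Cy3 and in Cy5 had correlations across clones from 0.475 to 0.639, and the ratios were therefore taken to have been turned before deposit. In ratios that had not been turned, clone-specific dye effects could give the same sign of correlation. With replicate 2 of each day turned, the fit called 1 of 9738 clones higher on day 1 and 0 lower (609 and 271 at an unadjusted p under 0.05, limma), and 0 of 9032 on day 3 (108 higher and 146 lower unadjusted), with 0 calls among the lipid-transfer clones. For clones measured on all arrays, turning exchanges the mean of both days with the dye term. These counts are therefore not an independent check of the direction. If instead every array ran as control over salt, each rise given here would be a fall of the same size, and each rank from the top the same rank from the bottom. Between 7867 and 10381 clones were measured per array, and 7632 on all 6. Replicate 1 of day 3 stood apart, with r between -0.086 and 0.031 against the day 1 arrays. The ratios hold no level, so the labelled tissue could not be checked against its markers, and a change in the number of cells of a type cannot be told apart from a change in RNA per cell. Of the lipid-transfer clones, 5 were measured on all arrays, and having few arrays limits the precision of every value.

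All 3 clones of the tobacco-type protein 2 were higher under salt on day 3, and 2 of them on day 1. The tomato-type clone was lower in the mean of both days. On day 1, 2 of 8 tested clones were higher (STMGQ20 and STMGR44) and 1 was lower (STMEV05). On day 3, 3 of 8 were higher (STMGR44, STMGQ20 and STMGN69) and 0 were lower. All 3 share an annotation, and whether they stand for separate transcripts was not tested. These calls are from a limma fit of all clones with a term for the dye orientation, at an adjusted p under 0.05. At an unadjusted p under 0.05 the counts were 2 higher and 2 lower on day 1 and 3 higher and 0 lower on day 3. Among all tested clones, 8.11% were called higher and 10.5% lower on day 1, and 1.93% higher and 4.42% lower on day 3. The median log2 ratio of the 8 clones was 0.13 on day 1 and 0.34 on day 3, beside 0.03 and 0.01 over all tested clones. The ninth clone, STMHF02, could not be tested.

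**Figure D1:**
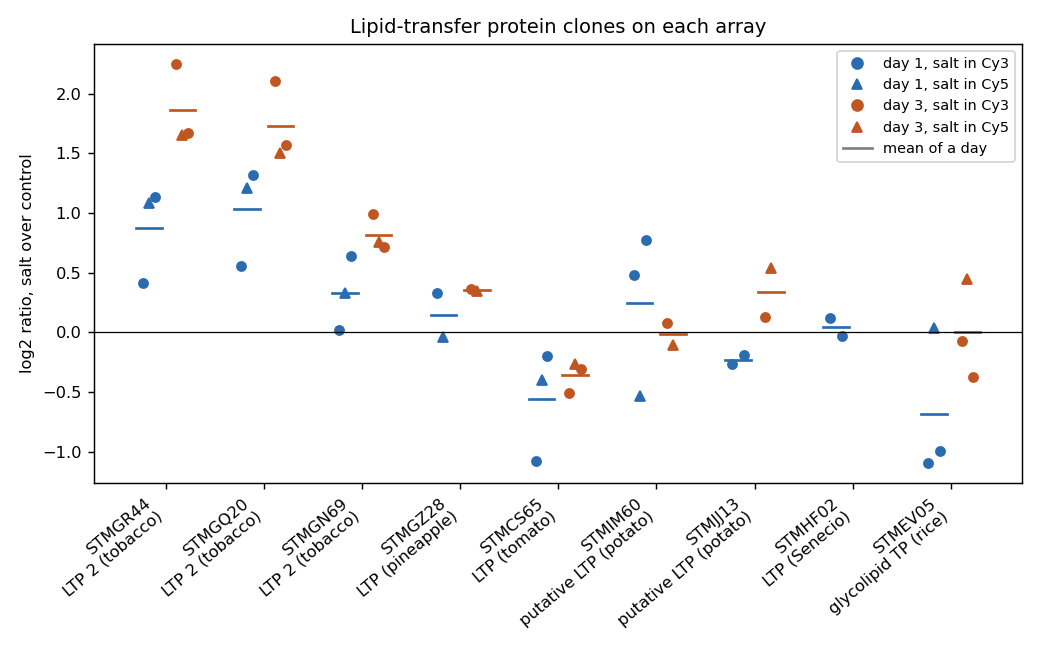
Log2 ratio of salt over control (y axis) of each lipid-transfer protein clone on every array that measured it, by day (colour) and by the dye that carried salt RNA (symbol), with the mean of each day as a line. The day 3 points of STMGR44 and STMGQ20 lie between 1.51 and 2.25, and the points of STMCS65 all lie below 0.

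STMGR44 had log2 ratios of 0.41, 1.08 and 1.13 on replicates 1, 2 and 3 of day 1, and of 2.25, 1.66 and 1.67 on those of day 3. Every day 3 array was above every day 1 array, a separation that 16.2% of clones measured on all arrays also showed. The fitted ratio was 0.88 on day 1 (SE 0.18, adjusted p = 0.00934 with limma), a 1.83-fold rise, and 1.86 on day 3 (SE 0.18, adjusted p = 0.000317), a 3.63-fold rise. On day 3 this was the 6th highest fitted ratio among 9032 clones (the 6th lowest if the ratios ran the other way), and on the arrays of that day only 3, 12 and 11 clones had higher ratios. The day 1 call was lost without replicate 2 of day 1 (0.62, adjusted p = 0.25) and without its replicate 3 (0.75, adjusted p = 0.0562). With the arrays in the direction taken here, the day 3 call held under all 13 alternatives, with ratios from 1.66 to 2.12. Among these, the looser threshold on the same fit (adjusted p under 0.1) could not lose a call. With replicate 2 of each day turned, the day 3 ratio was 0.30 and ranked 731st from the top.

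STMGQ20 followed closely, with 0.56, 1.21 and 1.32 on day 1 and 2.11, 1.51 and 1.57 on day 3. Again all day 3 arrays were above all day 1 arrays. Its fitted ratio was 1.02 on day 1 (SE 0.18, adjusted p = 0.00422 with limma) and 1.72 on day 3 (SE 0.18, adjusted p = 0.000531), folds of 2.03 and 3.30. It ranked 7th from the top on day 3 (7th from the bottom if the ratios ran the other way), directly after STMGR44. With replicate 2 of each day turned, its day 3 ratio was 0.26, the 948th from the top. Without replicate 2 of day 1 its day 1 value was 0.78 (adjusted p = 0.15), and its day 3 call held under the same 13 alternatives. Both clones were thus called higher on each day, as were 1.01% of the 9028 clones tested on both days, while 1.96% were called lower on each day.

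STMGN69, the remaining clone with this annotation, had smaller ratios. They were 0.02, 0.33 and 0.64 on day 1 and 0.99, 0.75 and 0.71 on day 3. The day 3 arrays again lay above those of day 1, and replicate 1 of day 1 was close to 0. On day 3 it rose by a fitted 0.81 (SE 0.15, adjusted p = 0.00936 with limma), the 81st highest of 9032 (the 81st lowest if the ratios ran the other way). On day 1 the fitted 0.32 did not pass (SE 0.15, adjusted p = 0.169, 95% interval -0.01 to 0.65). Without replicate 2 of day 3, the array with salt in Cy5, the day 3 value was 0.85 with adjusted p = 0.181. With replicate 2 of each day turned, it was 0.13 and ranked 2368th from the top.

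In each of these clones the ratio was above 0 on all 6 arrays, as in 7.49% of the clones measured on all of them. These signs and the small fitted dye terms of the clones rest on replicate 2 having been turned before deposit. Turning replicate 2 of each day would exchange the dye terms with the means of both days. Dye and replicate number also cannot be told apart. The arrays with salt in Cy3 were above those with salt in Cy5 by a fitted 0.05 for STMGN69 (adjusted p = 0.932), 0.03 for STMGQ20 (adjusted p = 0.966) and -0.0028 for STMGR44 (adjusted p = 0.997 with limma).

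**Figure D2:**
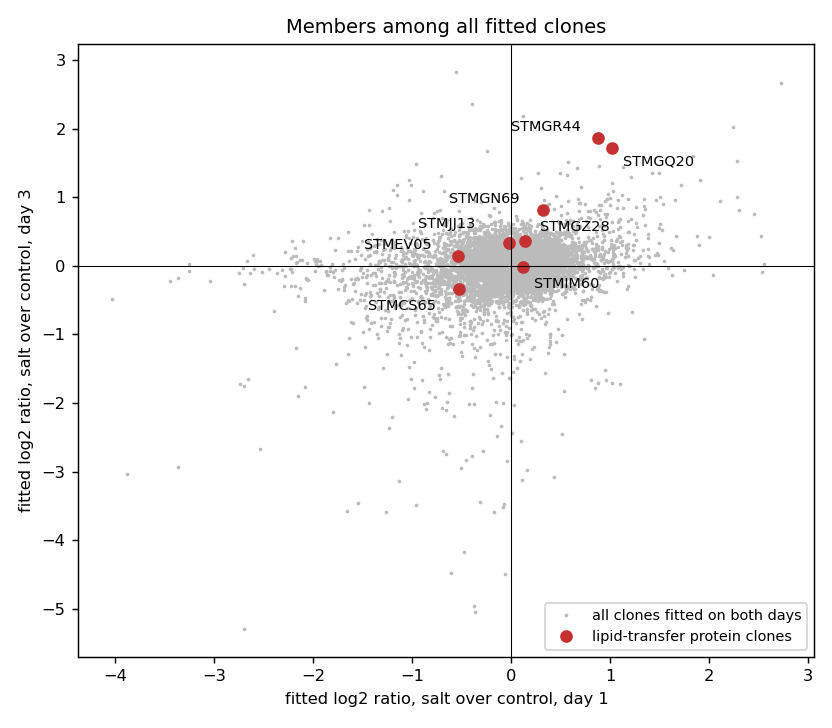
Fitted log2 ratio of salt over control on day 1 (x axis) and on day 3 (y axis) for every clone tested on both days (grey) and for 8 lipid-transfer protein clones (red). STMGR44 (0.88 and 1.86) and STMGQ20 (1.02 and 1.72) lie at the upper edge of the cloud, and STMEV05 and STMCS65 to the left of its centre.

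The clones that share the tobacco annotation did not all have ratios of the same size. On each of the 6 arrays STMGN69 was below STMGQ20, by 0.80 on average (SD 0.195), and below STMGR44, by 0.79 on average (SD 0.318). For each of these pairs a two-sided exact sign-flip permutation test over the arrays gave p = 0.0312, the smallest that 6 arrays allow. After adjustment over the 3 pairs tested it was 0.0469. Both results rest on the direction taken here. Turning replicate 2 of each day would reverse its differences, now -0.877 and -0.753 against STMGQ20 and -0.749 and -0.904 against STMGR44. Signs would then be mixed in both pairs and this smallest p would not be reached. The test was not run that way. STMGQ20 and STMGR44 differed by 0.01 on average over the arrays, from -0.151 to 0.192 (p = 0.844 by the same exact test). Averaging hid an ordering by day, which also rests on the direction taken for replicate 2. STMGQ20 was above STMGR44 by 0.146, 0.128 and 0.192 on the arrays of day 1 and below it on those of day 3, with differences of -0.144, -0.151 and -0.104. The change of this small difference between the days had p = 0.1 by an exact two-sided permutation test, the smallest that 3 arrays against 3 allow, and 0.15 after adjustment over the pairs. For STMGN69 minus STMGR44 the difference moved from -0.54 to -1.04 (p = 0.1 by the same exact test), and for STMGN69 minus STMGQ20 from -0.70 to -0.91 (p = 0.3, exact).

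**Figure D3:**
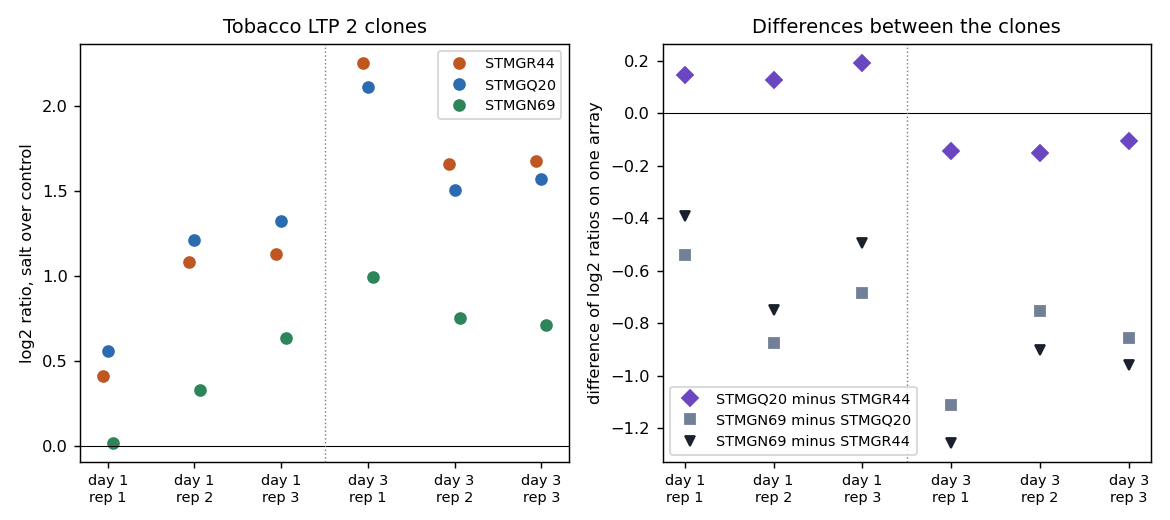
Left, log2 ratio of salt over control of the clones annotated as tobacco lipid-transfer protein 2 on each array. Right, the difference of log2 ratios between each pair of them on the same array; STMGN69 is below both others on every array, and STMGQ20 minus STMGR44 is above 0 on day 1 and below 0 on day 3.

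The day 3 response of STMGR44 exceeded that of day 1 by 0.98 (SE 0.25, adjusted p = 0.0346 with limma), which was 1.98-fold. This call was lost when replicate 1 of day 1 (0.72, adjusted p = 0.144), its replicate 3 (1.13, adjusted p = 0.0538) or replicate 1 of day 3 (0.76, adjusted p = 0.0709) was left out, and in a fit with no dye term (0.98, adjusted p = 0.0579). For STMGQ20 the difference of 0.70 (SE 0.25, adjusted p = 0.118) and for STMGN69 that of 0.49 (SE 0.20, adjusted p = 0.162) did not pass. In all, 2 of 8 clones were higher on day 3 than on day 1 and 0 lower (4 and 0 at an unadjusted p under 0.05), beside 6.53% higher and 5.08% lower among all tested clones. The other of these 2 was the glycolipid clone STMEV05.

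STMCS65, named for the tomato protein, went the other way. Its ratios were -1.08, -0.40 and -0.20 on day 1 and -0.51, -0.27 and -0.31 on day 3. All 6 were below 0, as in 7.73% of clones measured on all arrays, and the days overlapped. The mean over both days fell by a fitted 0.43 (SE 0.12, adjusted p = 0.039 with limma), a 1.35-fold reduction. Of all tested clones, 7.2% were higher and 10.6% lower in this mean, and of the lipid-transfer clones 3 were higher (STMGQ20 and STMGR44 at 1.37 and STMGN69 at 0.57) and 1 was lower. The call of STMCS65 depended on single arrays. It was lost when replicate 1 of day 1 was left out (-0.33, adjusted p = 0.0752), likewise for its replicate 2 (-0.45, adjusted p = 0.194) and for replicate 2 of day 3 (-0.41, adjusted p = 0.281). That of STMGN69 was lost without replicate 2 of day 1 (0.54, adjusted p = 0.0802) or of day 3 (0.59, adjusted p = 0.0628). By day, STMCS65 had -0.53 on day 1 (SE 0.17, adjusted p = 0.0576) and -0.33 on day 3 (SE 0.17, adjusted p = 0.341). The day 1 value passed when replicate 3 of that day was left out (-0.74, adjusted p = 0.0202), when replicate 1 of day 3 was (-0.53, adjusted p = 0.0476) and with a replicate block (-0.56, adjusted p = 0.0127).

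The potato-named clones showed no common pattern. STMIM60 had 0.48, -0.53 and 0.78 on day 1 and 0.08 and -0.10 on replicates 1 and 2 of day 3. The arrays with salt in Cy3 were above that with salt in Cy5 on each day, by a fitted 0.74 (unadjusted p = 0.0199, adjusted p = 0.18, limma). STMJJ13 had -0.27 and -0.19 on replicates 1 and 3 of day 1 and 0.13 and 0.54 on replicates 1 and 2 of day 3, so that its signs were opposite on the days. Its dye orientations were unequal between the days, and the fitted difference of 0.36 did not pass (SE 0.26, adjusted p = 0.447). On the 4 arrays that measured both, STMIM60 was above STMJJ13 by 0.754 and 0.965 on day 1 and below it on day 3, with differences of -0.049 and -0.642, and no test was made on so few arrays. Neither clone passed on any day.

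The pineapple-named STMGZ28 had 0.33 and -0.04 on replicates 1 and 2 of day 1 and 0.36 and 0.35 on those of day 3. Its fitted day 3 ratio of 0.36 did not pass (SE 0.15, adjusted p = 0.28, 95% interval -0.01 to 0.72). STMHF02 was measured only on replicates 1 and 3 of day 1, at 0.12 and -0.03. Both arrays had salt in Cy3, so its ratio could not be separated from the dye.

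The glycolipid-type clone STMEV05 had unlike ratios on the arrays of the 2 dye orientations. Salt was in Cy5 only on replicate 2 of each day, so dye and replicate number cannot be told apart. On day 1 it had -1.09 and -0.997 on the arrays with salt in Cy3 and 0.04 on that with salt in Cy5. On day 3 the corresponding values were -0.07 and -0.38 against 0.45. The Cy3 arrays were lower than the Cy5 arrays by a fitted 0.88 (unadjusted p = 0.00101, adjusted p = 0.0611, limma), beside 18.6% of 9742 clones with a dye term at an unadjusted p under 0.05 and 0.924% past adjustment. With the dye term, the clone fell by 0.54 on day 1 (SE 0.13, adjusted p = 0.0169) and had 0.15 on day 3 (SE 0.13, adjusted p = 0.626), a difference of 0.68 between the days (SE 0.17, adjusted p = 0.035). Without the dye term the day 1 value was -0.68 (adjusted p = 0.0988) and that of the difference 0.68 (adjusted p = 0.308). The day 1 call was also lost without replicate 1, 2 or 3 of day 1 (-0.48, -0.71 and -0.53, adjusted p = 0.1, 0.0849 and 0.0769). That of the difference was lost without any of these (0.62, 0.82 and 0.67) and without replicate 1 or 2 of day 3 (0.56 and 0.82). The mean of both days, -0.20 (adjusted p = 0.198), passed without replicate 1 of day 3 (-0.24, adjusted p = 0.0466) and with a replicate block (-0.34, adjusted p = 0.0211).

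Genes of the surrounding lipid metabolism were counted by the same fit, from word patterns on the annotation. In fatty acid synthesis and desaturation, 20 of 58 tested clones were lower on day 1 and 3 higher (26 and 5 at an unadjusted p under 0.05, limma), beside 10.5% lower and 8.11% higher among all tested clones, with a median log2 ratio of -0.23 beside 0.03. They included an oleate desaturase, which introduces a second double bond into oleic acid (STMIY10, -1.27, SE 0.12), and a plastid palmitoyl desaturase (STMCP71, -1.46, SE 0.13). On day 3, 7 of 57 were lower and 1 higher (14 and 5 unadjusted), beside 4.42% lower and 1.93% higher among all, with a median of -0.06 beside 0.01. The lower ones were led by a sterol desaturase (STMEA40, -2.02) and fatty acid hydroperoxide lyase (STMCD19, -1.57), which the pattern matched although neither makes fatty acids. The lyase was also among the lower clones on day 1 (-0.63). Without the 3 clones of these names, 18 of 55 were lower and 3 higher on day 1 (23 and 5 unadjusted), with a median of -0.15, and 4 of 54 lower and 1 higher on day 3 (11 and 5 unadjusted). In wax, cutin and suberin synthesis 1 of 15 clones was lower on day 1, glycerol-3-phosphate acyltransferase 5, which in Arabidopsis acts in suberin synthesis (STMJN54, -0.84), and 0 were higher (2 lower and 0 higher at an unadjusted p under 0.05, limma). On day 3, 1 of 11 was lower, a GDSL-motif lipase (STMCK85, -0.99), and 0 were higher (2 and 1 unadjusted). This call was lost without the dye term and in the fit of clones measured on all arrays, which gave 0 calls each.

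Among intracellular lipid carriers and ABC transporters, 3 of 23 clones were lower on day 1 and 1 higher (3 and 2 unadjusted, limma), near the shares of 10.5% and 8.11% among all tested clones, with the ABC transporters STMCR28 at -0.76 and STMCZ85 at -0.51. On day 3, 1 of 21 was lower, a plastid lipocalin (STMEZ22, -0.56), and 1 higher, the membrane-binding annexin p34 (STMIY93, 0.47), with 2 lower and 1 higher unadjusted (limma), again near the shares of all clones (4.42% and 1.93%). Other secreted proline-rich and eight-cysteine proteins had 3 of 17 clones lower and 1 higher on day 1 (3 and 1 unadjusted), and 2 lower and 0 higher on day 3 (3 and 3 unadjusted, limma). The proline-rich protein STMGL17 was at -1.65 and -1.28 on days 1 and 3 and the extensin-like wall protein STMCR06 at -1.26 and -1.28. Antimicrobial peptides of the snakin, defensin and GAST type, after removal of methionine enzymes that the pattern thionin matched by accident, had 1 of 4 clones lower on day 1 and 0 higher (1 and 0 unadjusted), the GAST1-like STMJC16 at -4.04. On day 3, 0 of 3 passed (1 lower and 0 higher unadjusted). With the pattern as first set, 20 of 49 clones were lower and 2 higher on day 1 (21 and 4 unadjusted) and 5 of 47 lower and 1 higher on day 3 (8 and 4 unadjusted).

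As marker lists, the light-harvesting and Rubisco small chain clones of mesophyll had 35 of 42 lower and 0 higher on day 1 (35 and 0 unadjusted, limma), with a median of -1.32, and 9 lower and 0 higher on day 3 (15 and 0 unadjusted), with a median of -0.11. Among all tested clones, 10.5% were lower and 8.11% higher on day 1, and 4.42% lower and 1.93% higher on day 3. CP24 (STMIY56) was at -2.15 and a Rubisco small chain clone (STMCP20) at -2.70 on day 1, and light-harvesting clones STMCY82 and STMIU17 at -1.06 and -0.76 on day 3. Tuber storage proteins had 1 of 10 lower on day 1, near the share of all clones, a patatin precursor (STMEP28, -1.45), and 0 higher (2 and 0 unadjusted). On day 3, 0 of 7 passed (0 lower and 1 higher unadjusted). Of 3 clones with words for vascular tissue, 0 passed on any day, also unadjusted, with medians of 0.15 and 0.18. The part of these shifts in the ratios of the lipid-transfer clones was not tested.

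**Figure D4:**
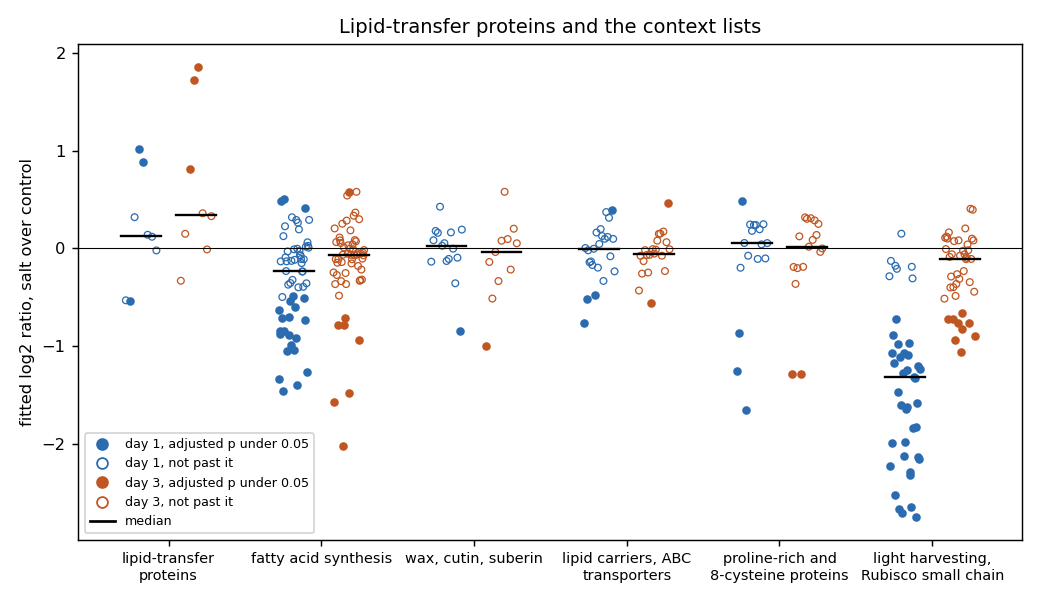
Fitted log2 ratio of salt over control (y axis) for the tested lipid-transfer protein clones and for the clones of 5 word-pattern lists, by day; filled points passed an adjusted p under 0.05, open points did not, and lines are medians. The lipid-transfer medians are 0.13 and 0.34 on days 1 and 3, and the light-harvesting and Rubisco medians are -1.32 and -0.11.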

How the data were processed

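The authors deposited 1 log2 ratio per clone and array. How these were scanned, corrected, normalized and filtered is not given in the sources used here. No source names the log base, which was taken as 2, and the folds depend on it. The deposited p-values of the authors' one-sample tests were not used. Per the labels' protocols, RNA came from 100 mg of leaf, 15 micrograms were labelled per sample, and an RNA integrity number of at least 7 was required.

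All 10499 rows had the same 6 values in the series value table. All clones were fitted with limma 3.58.1 in R 4.3.3 (lmFit, eBayes), with a coefficient per day and a dye term and 1 spread per clone over both days. No intensities were used. A clone was tested with at least 2 arrays of each day concerned, residual degrees of freedom and, except for the difference of days, a ratio separable from the dye; the last condition was set after the data were seen. P-values are two-sided, with Benjamini-Hochberg adjustment over all clones tested. They rest on the spread between biological replicates, pooled over both days for each clone and moderated by that of all clones. An SE is therefore not the spread of the single day it is given for. Clones sharing an annotation were compared by exact tests of differences on the same array. The day comparison of those differences, the shortened antimicrobial and fatty acid lists, and the fit with replicate 2 of each day turned, were added after the data were seen.

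Members and lists were chosen with earlier results of these data known. Members past a threshold or sharing an annotation were named in full, the others with their values, and for each list the clones of smallest p, up to 2 per day. Annotations name the most similar known gene, often of another species. In the RefSeq gene table of assembly SolTub_3.0, 0 of the 9 clones matched, so no sequence or position is given. The fit was tested on simulated ratios. The alternatives dropped the dye term or used other scaling and centring, only clones measured on all arrays, another threshold, a replicate block, each array left out, each day alone and the series value table. SciPy 1.17.1, NumPy 2.4.6 and pandas 2.3.3 ran under Python 3.11.15, and matplotlib 3.10.9 drew the figures.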

Additional observations from a re-analysis of the deposited data

Results flagged for a closer look

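The salt ratio differed between the days for 2 clones by the contrast of the fit, STMGR44 with a difference of 0.98 (adjusted p = 0.0346, limma; every day 3 array above every day 1 array) and STMEV05 with 0.68 (adjusted p = 0.035, limma; higher on day 3 within each dye orientation). STMJJ13 was below 0 on both measured arrays of day 1 and above 0 on both of day 3. Its fitted difference of 0.36 did not pass (adjusted p = 0.447, limma).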

How the results depend on the processing

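The count of lipid-transfer clones called was 3 on day 1, with 0 to 4 when 1 array was left out (0 without replicate 2 of day 1). On day 3 it was 3, with 2 to 3. For the difference between days it was 2, with 0 to 2 when 1 array was left out and 0 without the dye term. For the mean of both days it was 4, with 2 to 5 when 1 array was left out. With a replicate block the counts were 4, 3, 2 and 5 in this order, and besides the calls given above for STMCS65 and STMEV05 no call of a lipid-transfer clone changed. Same-numbered arrays of the days deviated together with r of 0.046, 0.596 and 0.451 for replicates 1, 2 and 3 across clones, and replicate 1 of day 1 correlated best with replicate 3 of day 3 (0.198). The numbers, which also carry the dye orientation, were therefore not taken as pairs. With replicate 2 of each day turned, an alternative chosen after seeing the data, the counts were 0, 0, 0 and 0. At an unadjusted p under 0.05 (limma) they were then 1 higher and 1 lower on day 1 and for the mean, and 0 and 0 on day 3 and for the difference. On day 1 that turned STMGN69 to -0.08, STMGQ20 to -0.23 and STMGR44 to -0.30. On day 3 it turned STMEV05 to -0.23, STMIM60 to 0.09 and STMJJ13 to -0.20, and left STMGN69, STMGQ20 and STMGR44 at 0.13, 0.26 and 0.30. It turned the difference of STMGZ28 to -0.18 and the means of STMGR44 and STMJJ13 to -0.0014 and -0.38. Of 375 values of single clones under the other alternatives, 333 kept direction and side of the threshold, 25 lost a call, 7 gained one and 10 changed sign. Some of the 333 were fixed in advance. The series value table held the same values, and the looser threshold, applied to the main fit, could only gain calls. Those that changed sign were never called. They were STMEV05 on day 3 (-0.00067 without the dye term, with a replicate block and with the day fitted alone), STMJJ13 on day 1 with arrays scaled to equal median absolute deviation (0.05), and STMIM60 with a replicate block on day 3 (0.26) and for the difference (0.01). When 1 array was left out, STMIM60 ranged from -0.02 to 0.54 on day 1, from -0.55 to 0.01 for the difference and from -0.02 to 0.26 for the mean, and STMCS65 from -0.06 to 0.44 for the difference. Scaling to equal median absolute deviation brought the difference of STMGQ20 past the threshold (1.03, adjusted p = 0.0267) and took that of STMEV05 below it (0.60, adjusted p = 0.0542). Of the lists, calls in wax, cutin and suberin synthesis went from 1 to 2 on day 1 in the clones measured on all arrays and from 1 to 0 on day 3 there and without the dye term, and those of lipid carriers from 4 to 2 on day 1 and from 2 to 1 on day 3 without the dye term. The causes were not tested. Signal over background could not be assessed from ratios.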
